A study of Mus musculus with 4 samples.

Results

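The collagen chains measured here are the 44 genes, of 55487 in the deposited count table, whose symbol is Col, a type number, the letter a and a chain number. Each symbol had 1 entry, so no choice between duplicate entries was needed, and membership follows from the symbol alone. All 44 passed the filter on low counts and were tested. They were read in Langerhans cells, which are epidermal dendritic cells, purified from the ears of wild type mice that had received either Vaseline, the control, or imiquimod, a Toll-like receptor 7 agonist that gives a psoriasis-like skin inflammation when applied topically. Each treatment had 2 libraries of total RNA, called Vaseline 1 and 2 and imiquimod 1 and 2, and 2 values given for a treatment are in that order. No other allele or agent is named for either group, and age, sex, dose and duration are not given in the sources used here. Nothing states that libraries of the same treatment are from different mice, and p-values then measure how far these samples spread, in part perhaps for technical reasons.

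Each collagen is a trimer of alpha chains wound into a triple helix, and each chain has its own gene. In skin, dermal fibroblasts secrete types I, III and V, which assemble into the banded fibrils of the dermis. Basal keratinocytes make type XVII, a transmembrane chain of the hemidesmosome, and much of type VII, the anchoring fibril that ties the basement membrane to the dermis. The type IV chains form the sheet of the basement membrane, with the alpha 5 and alpha 6 chains found under the epidermis. Langerhans cells sit among keratinocytes and are not known as makers of fibrillar collagen, so both classes were read beside markers of keratinocytes and fibroblasts.

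The results turn on 2 classes, the 6 fibrillar dermal chains (Col1a1, Col1a2, Col3a1, Col5a1, Col5a2 and Col5a3) and the 4 keratinocyte basement membrane chains (Col17a1, Col7a1, Col4a5 and Col4a6). The sequences just upstream of Col3a1, the 1 chain past the test, and of Col17a1 and Col7a1, the highest chains, are shown to set a fibrillar gene beside keratinocyte genes. They are the reference sequence from RefSeq on GRCm38.p6, which held a promoter entry for 35 of the 44 chains. They were kept to the 200 bases before the RefSeq start and to bases outside annotated exons, which left 148 bases for Col17a1. Col3a1 lies at chr1:45311338-45311537 on the plus strand, Col7a1 at chr9:108953386-108953585 on the plus strand and Col17a1 at chr19:47692095-47692242 on the minus strand. Capitals mark the motif TATAAA, as in a core promoter box, and the motif GGGCGG, as bound by Sp1 family factors.
Col3a1: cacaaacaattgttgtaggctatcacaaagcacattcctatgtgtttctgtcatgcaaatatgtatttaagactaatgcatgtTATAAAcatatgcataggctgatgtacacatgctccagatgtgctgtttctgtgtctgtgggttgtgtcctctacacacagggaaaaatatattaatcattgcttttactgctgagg
Col17a1: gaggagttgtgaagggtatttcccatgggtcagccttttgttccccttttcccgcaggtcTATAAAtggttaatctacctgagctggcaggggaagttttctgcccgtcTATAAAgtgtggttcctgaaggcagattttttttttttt
Col7a1: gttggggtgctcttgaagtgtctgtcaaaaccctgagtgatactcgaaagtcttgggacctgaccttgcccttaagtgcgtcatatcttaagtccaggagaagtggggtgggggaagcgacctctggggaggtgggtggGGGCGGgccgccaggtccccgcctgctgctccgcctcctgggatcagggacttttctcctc

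Col3a1 held 1 TATAAA, 117 to 112 bases before the RefSeq start, and Col17a1 held 2, the nearer of them 91 to 86 bases before it. For Col17a1, the GENCODE vM21 gene starts upstream of the RefSeq start. The Col17a1 stretch, at positions -200 to -53 from the RefSeq start, directly adjoins that GENCODE start. Its 2 motifs thus lie nearer to the GENCODE start than to the RefSeq start. Col7a1 held 1 GGGCGG, 61 to 56 bases before its RefSeq start. Both strands were searched for these motifs and for CCAAT, which had no match in these stretches. Over all 32851 promoter entries, the full 200 bases held TATAAA in 9.96%, GGGCGG in 31.0% and the letters CCAAT in 29.3%. They held TGANTCA in 5.48% and GCCNNNGGC in 11.8%.

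Library totals ranged 5.10-fold, from 14902782 counts in imiquimod 1 to 76028955 in Vaseline 2, with a biological coefficient of variation of 0.607. With 2 libraries against 2, an exact two-sided permutation test of a single value cannot go below p = 0.333, so tests on single genes come from the edgeR fit across 39439 genes. Levels are CPM, counts scaled to library size, with TMM factors, and each fold change is the log2 ratio of imiquimod to Vaseline, given with its standard error (SE). The median log2 fold change of all genes tested was 0.41 with these factors, 0.16 with RLE factors and 1.30 with library totals alone. A low level of reads over genes not known to be expressed in skin was taken as background, as the median CPM per exonic kilobase of 1768 olfactory and vomeronasal receptor genes; it was 0.396 and 0.153 with Vaseline and 0.501 and 0.758 with imiquimod. The Langerhans cell marker Cd207 (langerin) was present in every library, at 2255 and 6883 CPM with Vaseline and 1201 and 575 CPM with imiquimod. The sample descriptions carry the letters XZ for both Vaseline libraries, AU for imiquimod 1 and WY for imiquimod 2, with no stated meaning. Should these letters stand for batches, the treatments share none, and the effects of batch and treatment cannot be told apart.

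Collagen RNA in these libraries was mostly that of Col17a1, also known as BP180. Col17a1 (ENSMUSG00000025064, chr19:47646344-47692094 on GRCm38, minus strand) took 76.05% of all collagen counts in Vaseline 1 (95% exact Clopper-Pearson interval 75.8 to 76.3%), 70.9% in Vaseline 2 (70.6 to 71.1%), 82.8% in imiquimod 1 (82.4 to 83.1%) and 53.5% in imiquimod 2 (53.0 to 54.0%). These intervals cover counting error only, as amplified reads that lack molecular identifiers may repeat a molecule. Per exonic kilobase, the mean Col17a1 level over the 4 libraries was 301 CPM. The next chain, Col7a1, stood at 10.97 CPM per kilobase on the same scale. It was followed by Col16a1 at 9.63, Col18a1 at 7.93 and Col23a1 at 6.25 CPM per kilobase, 3 neighbours whose SDs over the 4 libraries (6.64, 5.13 and 1.91) were as wide as or wider than the steps between them. Col1a1, the highest fibrillar dermal chain, ranked 8 of 44 at 2.54 ± 2.11 CPM per kilobase (SD over the 4 libraries), and Col3a1 ranked 13 at 1.72 ± 2.34. Those ranks rest on Vaseline 2: without it Col1a1 ranked 13 at 1.51 ± 0.527 and Col3a1 ranked 40 at 0.557 ± 0.257 (SD over 3 libraries).

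**Figure D1:**
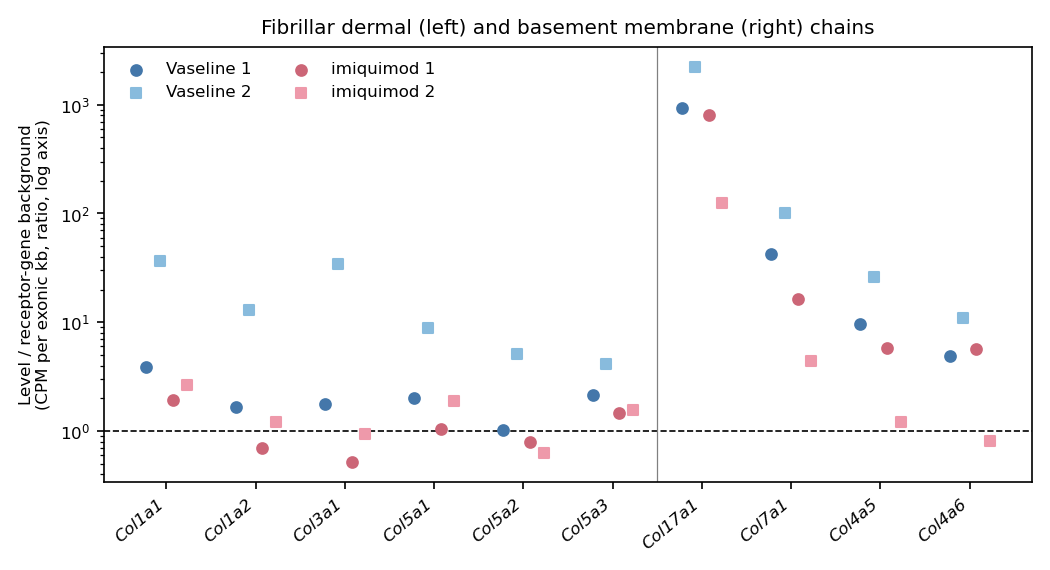
Level of each of the 6 fibrillar dermal and 4 basement membrane chains in each of the 4 libraries, as CPM per exonic kilobase over the receptor-gene background of that library (ratio, log axis, dashed line at 1). On this scale Vaseline 2, the library with the lowest background, is the highest for all 10 chains. By CPM alone it is the highest for Col1a1, Col1a2, Col3a1, Col5a2 and Col4a5, but not for Col5a1, Col5a3, Col17a1, Col7a1 and Col4a6. Col17a1 stands between 125 and 2230 times background while no fibrillar chain passes 3.92 outside Vaseline 2.

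Of the 44 chains, 1 fell with imiquimod and 0 rose at an adjusted p under 0.05 in edgeR's quasi-likelihood test with Benjamini-Hochberg adjustment over all genes. The same test called 0.137% of all genes lower and 0.0634% higher. At an unadjusted p under 0.05, 6 chains were lower and 6 higher. The fold change was positive for 24 chains and negative for 20, with a median of 0.09 against 0.41 over all genes. The gap between these medians, -0.32, was 0.0028 with the stricter filter, -0.023 without Vaseline 2 and -0.75 without Vaseline 1, so it depended on the filter and the libraries used. The libraries of the 2 groups did not overlap for 23 chains, 14 with imiquimod above and 9 below. Over all genes tested, imiquimod lay above in 30.5% and below in 20.9%, so 14 and 9 of 44 are near the shares of all genes.

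**Figure D2:**
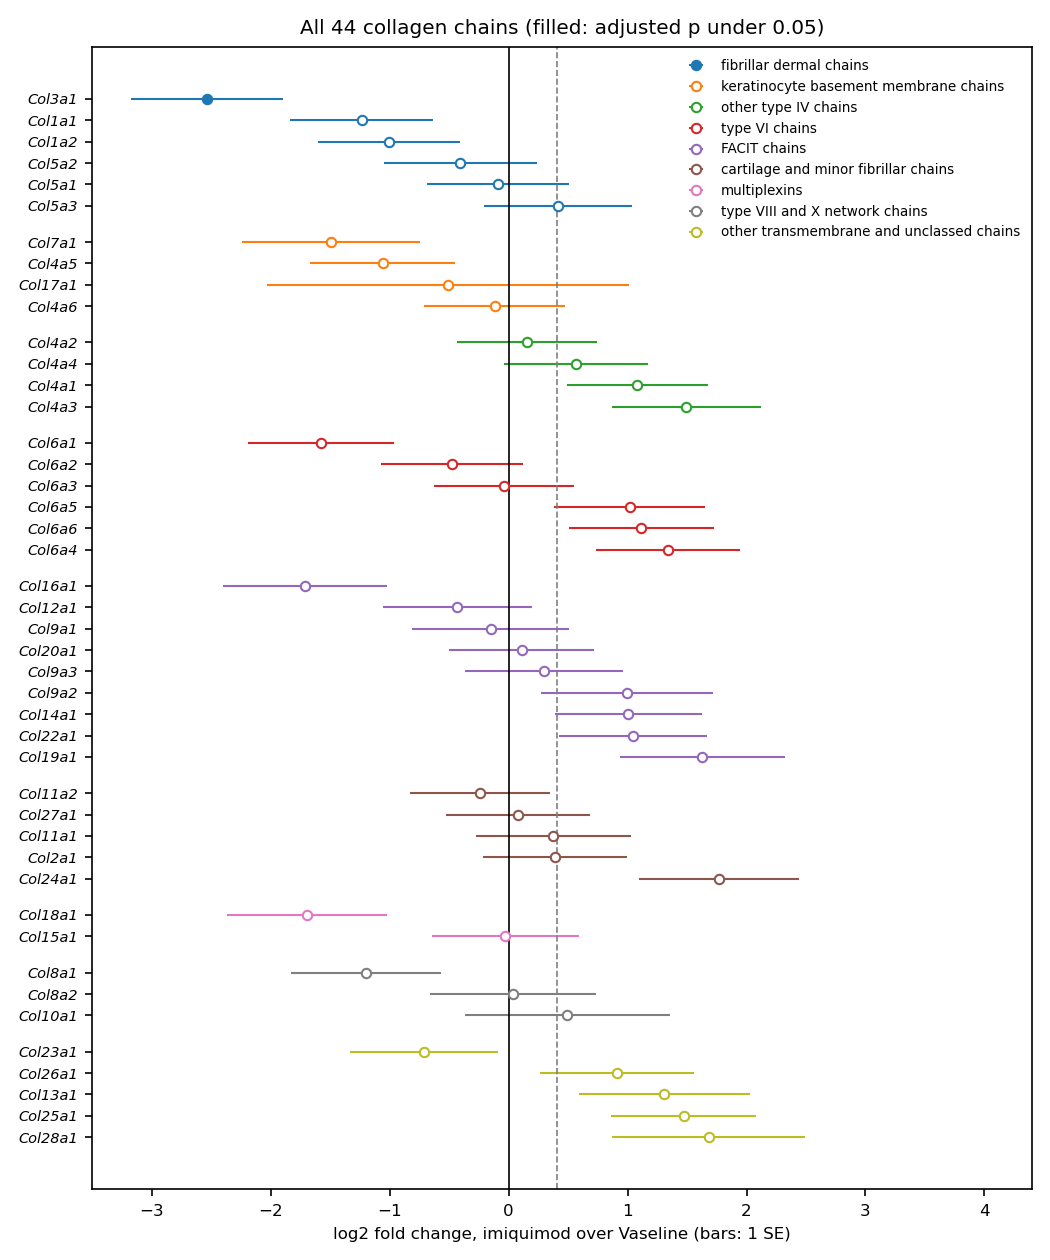
Log2 fold change of imiquimod over Vaseline for all 44 collagen chains with TMM factors (points; bars are 1 SE), grouped by class, with the median of all genes tested as a dashed line at 0.41. Col3a1, at -2.53, is the filled point and the only chain past the adjusted threshold; with library totals alone the fold changes shift upward together and some change sign.

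Among the fibrillar dermal chains, Col3a1 fell and the other 5 did not pass the test. Col3a1 (ENSMUSG00000026043, chr1:45311538-45349706, plus strand) encodes the chain of type III collagen. It measured 6.86 and 51.3 CPM with Vaseline and 2.56 and 6.98 CPM with imiquimod. Vaseline 2 was high and the other libraries were low, and the groups overlapped, since imiquimod 2 lay just above Vaseline 1. The log2 fold change was -2.53 (SE 0.64, edgeR quasi-likelihood adjusted p = 0.0408). It was -0.53 without Vaseline 2, with an adjusted p of 0.999 in the same test, and the call was also lost without either imiquimod library, with RLE factors, with library totals and in the older form of the test. It was kept with a stricter filter, which called 0.434% of its genes lower, and without Vaseline 1, where 0.768% of genes were called lower. Against the background, Col3a1 stood at 1.77 and 34.2 with Vaseline and 0.520 and 0.937 with imiquimod, so it was above the background by over 2-fold in Vaseline 2 alone.

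Col1a1 (ENSMUSG00000001506, chr11:94936224-94953042, plus strand) encodes the alpha 1 chain of type I collagen, the main fibril protein of the dermis. It measured 10.2 and 37.0 CPM with Vaseline and 6.32 and 13.2 CPM with imiquimod. Vaseline 2 was again the highest, and the groups overlapped. The log2 fold change was -1.24 (SE 0.60, edgeR quasi-likelihood adjusted p = 0.351). Col1a2, its partner in the type I trimer, measured 8.11 and 24.7 CPM with Vaseline and 4.34 and 11.5 CPM with imiquimod, also overlapping, and its fold change was -1.004 on the log2 scale (SE 0.60, adjusted p = 0.407). Against the background, Col1a1 stood at 3.92 and 36.9 with Vaseline and 1.92 and 2.66 with imiquimod. Col1a2 stood at 1.65 and 13.0 with Vaseline and 0.698 and 1.22 with imiquimod. Outside Vaseline 2 the background thus makes up much of the Col1a2 count. With that limit, the ratio of the 2 partners was near in every library. There were 1255 and 1494 Col1a1 counts per 1000 Col1a2 counts with Vaseline and 1456 and 1153 with imiquimod. Col3a1 counts per 1000 Col1a1 counts, a ratio that no scaling factor touches, were 674 and 1388 with Vaseline and 404 and 528 with imiquimod. In that ratio the groups did not overlap, though the permutation limit of 0.333 leaves it without a usable test. Col3a1 itself stood at 1.77 times background in Vaseline 1 and at 0.520 and 0.937 with imiquimod. Outside Vaseline 2 the ratio is thus largely one of background reads to Col1a1 reads.

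The type V chains, which sit inside type I fibrils and set their diameter, had CPM values flatter than those of the type I chains. Col5a1 measured 6.84 and 11.5 CPM with Vaseline and 4.47 and 12.2 CPM with imiquimod. Col5a2 measured 3.87 and 7.42 CPM with Vaseline and 3.83 and 4.61 CPM with imiquimod. Col5a3 measured 5.79 and 4.27 CPM with Vaseline and 5.05 and 8.05 CPM with imiquimod. Over background, Col5a1 stood at 2.04 and 8.86 with Vaseline and 1.05 and 1.89 with imiquimod. Col5a2 stood at 1.02 and 5.06 with Vaseline and 0.798 and 0.634 with imiquimod. Col5a3 stood at 2.15 and 4.10 with Vaseline and 1.48 and 1.56 with imiquimod. Outside Vaseline 2 the background thus makes up much of these counts. The groups overlapped for all 3 chains, whose log2 fold changes were -0.09, -0.41 and 0.42, each smaller than its SE. Over the 6 fibrillar chains the median log2 fold change was -0.71, with 5 negative under TMM factors; with library totals Col1a2, Col5a1 and Col5a2 turned positive, at 0.10, 0.94 and 0.55.

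None of the 4 keratinocyte basement membrane chains passed the test in either direction, and 1 had an unadjusted p under 0.05. Col17a1 measured 2206 and 2049 CPM with Vaseline and 2420 and 569 CPM with imiquimod. With TMM factors, imiquimod 2 stood apart as the low library, while imiquimod 1 was the highest of the 4, so the groups overlapped. These factors were 0.955 and 0.598 with Vaseline and 1.05 and 1.66 with imiquimod. They raise the CPM of Vaseline 2 and lower that of imiquimod 2, so part of the gap between these libraries rests on scaling. The log2 fold change was -0.51 with an SE of 1.52 (edgeR quasi-likelihood adjusted p = 0.855), and without imiquimod 2 it was 0.19. An SE this wide gives the test of Col17a1 little power in this fit. The SE was 0.73 with DESeq2 and 0.43 with library totals, and Col17a1 did not pass there either. In every library Col17a1 was far above background, at 928 and 2230 times with Vaseline and 804 and 125 times with imiquimod.

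Col7a1 (ENSMUSG00000025650, chr9:108953586-108984875, plus strand) encodes the anchoring fibril chain. It measured 174 and 158 CPM with Vaseline and 84.6 and 34.4 CPM with imiquimod. Both imiquimod libraries lay below both Vaseline libraries. The log2 fold change was -1.49 (SE 0.75, edgeR quasi-likelihood adjusted p = 0.361). DESeq2 gave Col7a1 -1.73 with an adjusted p of 0.0782. Within each library, 78.8 and 77.4 Col7a1 counts were seen per 1000 Col17a1 counts with Vaseline, and 34.9 and 60.4 with imiquimod. The ratio was thus lower in both imiquimod libraries whatever the scaling factors. Set against 1000 counts of the 6 basal keratinocyte markers instead, Col7a1 gave 14.6 and 10.5 with Vaseline and 6.91 and 10.6 with imiquimod, and the groups overlapped.

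The type IV chains of the keratinocyte basement membrane class lay at lower levels. Col4a5 (ENSMUSG00000031274) measured 25.8 and 26.6 CPM with Vaseline and 19.7 and 6.19 CPM with imiquimod. The imiquimod libraries were both below, and the log2 fold change was -1.06 (SE 0.61, edgeR quasi-likelihood adjusted p = 0.398). Col4a6 (ENSMUSG00000031273), whose start lies 1309 bases from that of Col4a5 on the opposite strand of the X chromosome, measured 15.5 and 13.5 CPM with Vaseline and 22.8 and 4.93 CPM with imiquimod. The groups overlapped for Col4a6, and its fold change was -0.12 on the log2 scale (SE 0.60, adjusted p = 0.917). Per 1000 Col17a1 counts, Col4a5 gave 11.7 and 13.0 with Vaseline and 8.16 and 10.9 with imiquimod, while Col4a6 gave 7.05 and 6.58 with Vaseline and 9.42 and 8.66 with imiquimod. Measured against Col17a1, the 2 neighbours thus lay on opposite sides, Col4a5 lower and Col4a6 higher in both imiquimod libraries. In imiquimod 2 they stood only 1.21 and 0.816 times over background, at a level where the background itself makes up much of the count. The median log2 fold change of the 4 basement membrane chains was -0.78, with all 4 negative under TMM factors; with library totals Col17a1 and Col4a6 were positive, at 0.068 and 0.48.

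Set against each other, the fibrillar dermal and the basement membrane chains showed no difference between treatments beyond the spread of the libraries. Summed counts of the 6 fibrillar chains were 1669 and 6186 with Vaseline and 416 and 1936 with imiquimod. The 4 basement membrane chains summed to 97036 and 102088 counts with Vaseline and 39877 and 21063 with imiquimod. The basement membrane sum was 58.1 and 16.5 times the fibrillar sum with Vaseline, and 95.9 and 10.9 times with imiquimod. The 2 libraries of each treatment fell on either side, imiquimod holding both the highest and the lowest ratio. The log2 ratio of fibrillar to basement membrane counts was -4.95 ± 1.28 (SD, n = 2) with Vaseline and -5.01 ± 2.22 (SD, n = 2) with imiquimod, a difference of -0.06. Leaving out each library in turn moved that difference between -1.63 and 1.51. No p is given for it.

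**Figure D3:**
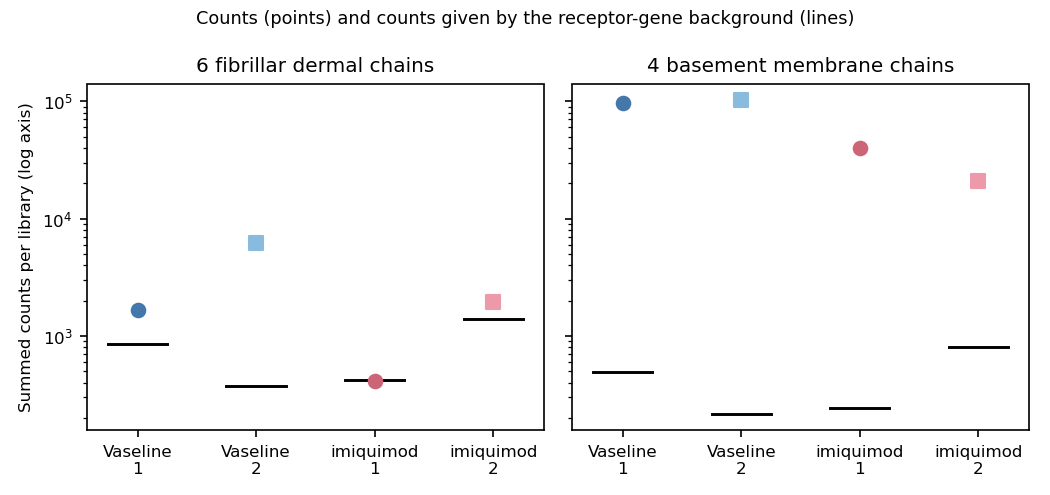
Summed counts of the 6 fibrillar dermal chains (left) and the 4 basement membrane chains (right) in each library (points, log axis), with the counts that the receptor-gene background of that library gives over the same exonic length (lines). The fibrillar sum meets its line in imiquimod 1 (416 against 421) and clears it widely only in Vaseline 2 (6186 against 373), while the basement membrane sum is above its line by 26.2-fold or more in every library.

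The fibrillar sum was close to background in 3 of the 4 libraries. The receptor-gene background alone would give 851 and 373 counts over these exons with Vaseline and 421 and 1395 with imiquimod. The measured fibrillar sums were 1.96, 16.6, 0.988 and 1.39 times these values. The fibrillar sum thus cleared the background widely only in Vaseline 2, the deepest library and the one with the lowest background. In imiquimod 1 the sum did not exceed it, with single chains on either side, from Col1a1 at 1.92 and Col5a3 at 1.48 times background to Col1a2 at 0.698 and Col3a1 at 0.520. The same figures for the basement membrane chains were 198, 475, 164 and 26.2.

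Markers of the cells known to make each class were read beside these values. The 6 basal keratinocyte markers (Krt5, Krt14, Krt15, Trp63, Cdh3 and Dsg3) summed to 11942 and 15144 CPM with Vaseline and 12235 and 3252 CPM with imiquimod, low in imiquimod 2 as Col17a1 was. Of these 6, 0 passed the edgeR test, 0 had an unadjusted p under 0.05, and 5 had a negative fold change. Col17a1 counts per 1000 counts of these markers were 185 and 135 with Vaseline and 198 and 175 with imiquimod, an overlapping range in which imiquimod 2 no longer stood apart. The 8 hemidesmosome and laminin-332 genes, which link basal keratinocytes to the basement membrane, summed to 7091 and 8381 CPM with Vaseline and 5815 and 1759 CPM with imiquimod; 0 of 8 passed. A low value in imiquimod 2 was not particular to keratinocyte genes. Over all genes at 5 times background or more, the median level over background was 13.2 and 46.5 with Vaseline and 9.59 and 4.44 with imiquimod. In these bulk libraries, fewer cells of a type and less RNA per cell cannot be told apart.

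The 14 dermal fibroblast markers summed to 869 and 1609 CPM with Vaseline and 514 and 277 CPM with imiquimod, a sum led by Gsn and Thy1, which other cells also express. Of the 14, 0 passed the edgeR test, 8 had positive and 6 negative fold changes, and their median was 0.14. By CPM, Vaseline 2 was the highest library for 6 of them (Dcn, Fbln1, Gsn, Lum, Sparc and Thy1), imiquimod 2 for 7 (Dpt, Fbn1, Mfap4, Mfap5, Pdgfra, Pi16 and Twist2) and imiquimod 1 for Clec3b. Dcn (decorin), a proteoglycan that coats type I fibrils, measured 3.99 and 17.7 CPM with Vaseline and 3.58 and 8.70 CPM with imiquimod. Dcn, named after its values were seen, was highest in Vaseline 2, as Col3a1 was. Pdgfra, a receptor of dermal fibroblasts, measured 5.44 and 6.32 CPM with Vaseline and 8.94 and 13.0 CPM with imiquimod, so by CPM the markers did not share 1 pattern. Over background, Pdgfra stood at 1.37 and 4.12 with Vaseline and 1.78 and 1.71 with imiquimod. On that scale every marker of the list was highest in Vaseline 2, the library with the lowest background. The median marker stood at 2.07 and 5.58 times background with Vaseline and 1.66 and 1.65 with imiquimod. The part of fibroblast RNA in the fall of Col3a1 was not tested. All 8 Langerhans cell markers lay lower in both imiquimod libraries, as did 50.3% of all genes at 5 times background or more, where all 8 lie. They summed to 21301 and 56227 CPM with Vaseline and 7567 and 6346 CPM with imiquimod, and 0 of 8 passed.

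**Figure D4:**
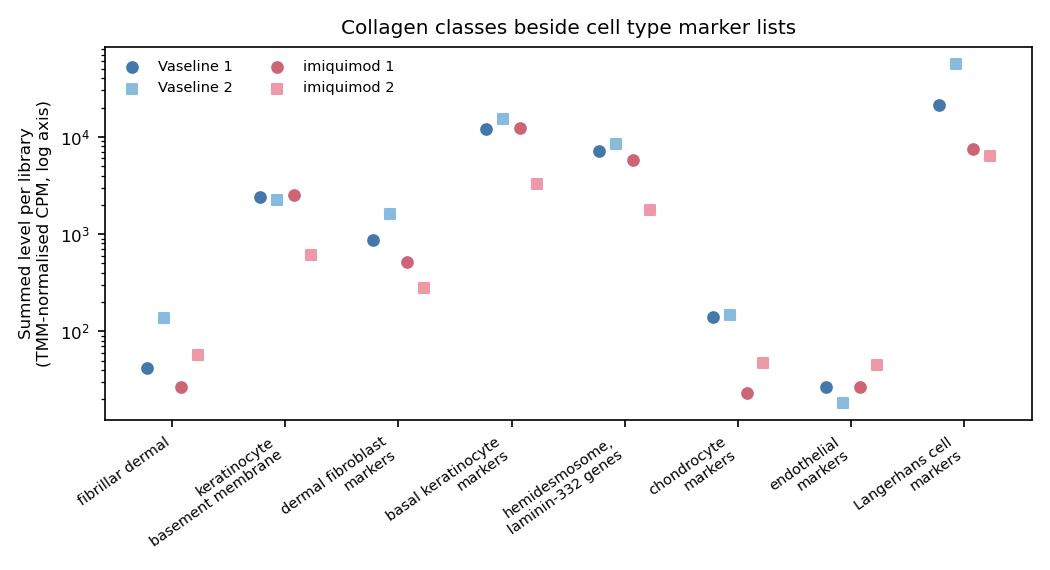
Summed TMM-normalised CPM (log axis) of the 2 collagen classes and of 6 marker lists in each library. The keratinocyte basement membrane chains and the basal keratinocyte markers both have their lowest point in imiquimod 2 (615 and 3252 CPM). So do the hemidesmosome and laminin-332 genes (1759 CPM), the dermal fibroblast markers (277 CPM) and the Langerhans cell markers (6346 CPM). The chondrocyte markers are lowest in imiquimod 1 and the endothelial markers in Vaseline 2. The fibrillar dermal chains are lowest in imiquimod 1 and highest in Vaseline 2 (136 CPM).

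Among the other type IV chains, 0 of 4 passed the test and all 4 fold changes were positive under TMM factors. Col4a1 measured 9.66 and 11.6 CPM with Vaseline and 22.4 and 22.6 CPM with imiquimod. Both imiquimod libraries lay above, and the log2 fold change was 1.08 (SE 0.60, edgeR quasi-likelihood adjusted p = 0.385). Among the 14 chains at 5 times background or more, Col4a1 alone had both imiquimod libraries above Vaseline. That pattern held for 5.56% of all genes at that level, so 1 of 14 is near the share of all genes. In a DESeq2 fit to genes at that level, chosen after the data were seen, Col4a1 rose by a log2 fold change of 1.85 with an adjusted p of 0.00355; that fit called 0.664% of its genes higher. EdgeR on the same genes gave 1.89 with an adjusted p of 0.421, and DESeq2 over all genes gave 0.78 with an adjusted p of 0.322, so the call stood in 1 fit alone. Col4a2, its partner in the type IV trimer, starts 21 bases away on the opposite strand and measured 8.64 and 10.2 CPM with Vaseline and 6.01 and 14.4 CPM with imiquimod. The groups overlapped for Col4a2, with a log2 fold change of 0.15 that turned to -0.13 with RLE factors. The 6 endothelial markers summed to 26.7 and 18.2 CPM with Vaseline and 26.4 and 44.7 CPM with imiquimod, all 6 with positive fold changes and 0 past the test. On average 3 of them lay under 2 times background and 3 between 2 and 5 times. At those levels 92.2% and 77.5% of all genes tested had positive fold changes. The part of endothelial RNA in the Col4a1 values was not tested. Col4a3 and Col4a4, which start 72 bases apart on opposite strands, lay under 2 times background on average, with log2 fold changes of 1.49 and 0.57.

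Type VI collagen forms beaded filaments around cells, with Col6a1, Col6a2 and Col6a3 as its main chains. Col6a1 measured 12.6 and 19.7 CPM with Vaseline and 2.94 and 7.38 CPM with imiquimod. Both imiquimod libraries lay below, and the log2 fold change was -1.58 (SE 0.61, edgeR quasi-likelihood adjusted p = 0.280). Col6a2 gave -0.48 and also lay below, while Col6a3, at 14.0 and 22.7 CPM with Vaseline and 11.3 and 23.8 CPM with imiquimod, overlapped at -0.04. The minor chains Col6a4, Col6a5 and Col6a6, neighbours on chromosome 9, had log2 fold changes of 1.34, 1.02 and 1.11 at mean levels of 2.35, 1.34 and 1.96 times background. None of the 6 passed the test.

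The FACIT chains are fibril-associated collagens with interrupted helices, and Col16a1 was the highest of them. Col16a1 (chr4:130047840-130099283, plus strand) measured 76.3 and 122 CPM with Vaseline and 42.04 and 19.2 CPM with imiquimod. Both imiquimod libraries lay below, and the log2 fold change was -1.71 (SE 0.69, edgeR quasi-likelihood adjusted p = 0.289). DESeq2 gave Col16a1 a log2 fold change of -2.00 with an adjusted p of 0.0493, and together with Col3a1 it made 2 chains lower in that fit, which called 1.34% of all genes lower. Against 1000 Col17a1 counts, Col16a1 gave 34.6 and 59.7 with Vaseline and 17.4 and 33.8 with imiquimod, which did not overlap but came within 1 count per 1000 of doing so. Col12a1 measured 47.1 and 43.8 CPM with Vaseline and 40.1 and 27.6 CPM with imiquimod, at a log2 fold change of -0.43. The other 7 FACIT chains (Col9a1, Col9a2, Col9a3, Col14a1, Col19a1, Col20a1 and Col22a1) had mean levels between 1.14 and 3.92 times background and fold changes from -0.15 to 1.63.

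Col18a1, a multiplexin of basement membranes whose end fragment is endostatin, measured 73.7 and 95.8 CPM with Vaseline and 38.1 and 15.001 CPM with imiquimod. The groups did not overlap, and the log2 fold change was -1.69 (SE 0.67, edgeR quasi-likelihood adjusted p = 0.287). Per 1000 Col17a1 counts it gave 33.4 and 46.8 with Vaseline and 15.7 and 26.4 with imiquimod, again lower in both imiquimod libraries. The other multiplexin, Col15a1, stood at 2.86 times background with a log2 fold change of -0.03. Col23a1, a transmembrane collagen like Col17a1, measured 41.1 and 47.8 CPM with Vaseline and 31.8 and 22.7 CPM with imiquimod, with a log2 fold change of -0.71 that was 0.075 with library totals. Per 1000 Col17a1 counts, Col23a1 gave 18.6 and 23.3 with Vaseline and 13.1 and 39.8 with imiquimod, and the groups overlapped.

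The cartilage and minor fibrillar chains included Col27a1, at 28.5 and 27.0 CPM with Vaseline and 22.0 and 36.1 CPM with imiquimod, and Col11a2, at 12.4 CPM in both Vaseline libraries and 6.71 and 13.8 CPM with imiquimod. The groups overlapped for both, with log2 fold changes of 0.08 and -0.24. Col2a1, the main fibril chain of cartilage, stood at 2.20 times background on average, and Col11a1 and Col24a1 at 0.929 and 1.21. The 7 chondrocyte markers summed to 140 and 146 CPM with Vaseline and 23.1 and 47.5 CPM with imiquimod. That sum was mostly Acan (aggrecan), at 124 and 126 CPM against 13.9 and 30.9 CPM, whose log2 fold change of -2.46 had an edgeR quasi-likelihood adjusted p of 0.112. Of these markers 6 were tested and 0 passed, and Snorc had no count in Vaseline 2. Among the network chains, Col8a1 measured 5.64 and 13.3 CPM with Vaseline and 3.71 and 4.49 CPM with imiquimod, a log2 fold change of -1.20, while Col8a2 and Col10a1 overlapped at 1.95 and 1.10 times background.

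Chains were also split by their mean level over background, a split that is not independent of the fold change. The mean leans on Vaseline 2, where the background was lowest, so a chain high in Vaseline is more likely to fall in the top class. Of the 14 chains at 5 times background or more, 2 were so in every library and 3 in Vaseline 2 alone. The signs below are therefore descriptions, linked in part by construction. Of the 15 chains under 2 times background, 14 had a positive fold change and their median was 1.05; over all genes at that level, 92.2% were positive with a median of 1.13. At 5 times background or more, 12 of the 14 chains were negative, and the median of the 14 was -0.89. Over all genes at that level, 17.1% were positive and the median was -0.68. When only genes at that level were fitted, the same 14 chains gave 7 positive and 7 negative values, with medians of -0.097 in edgeR and -0.13 in DESeq2. The 15 chains between had a median of 0.11, against 0.60 over all genes. Among the 14 chains at 5 times background or more, imiquimod lay below Vaseline without overlap in 7, where 50.3% of all genes at that level did. The chains with the highest positive values, Col24a1 at 1.77, Col28a1 at 1.68 and Col19a1 at 1.63, stood at 1.21, 0.769 and 1.14 times background. Without Vaseline 1, Col28a1 was called higher by edgeR, in a fit that called 7.17% of all genes higher. Col25a1, Col13a1 and Col26a1, the remaining transmembrane and unclassed chains, had log2 fold changes of 1.47, 1.31 and 0.91 at 1.54, 1.22 and 1.39 times background. The background was itself higher in both imiquimod libraries, and its part in these fold changes was not tested.

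**Figure D5:**
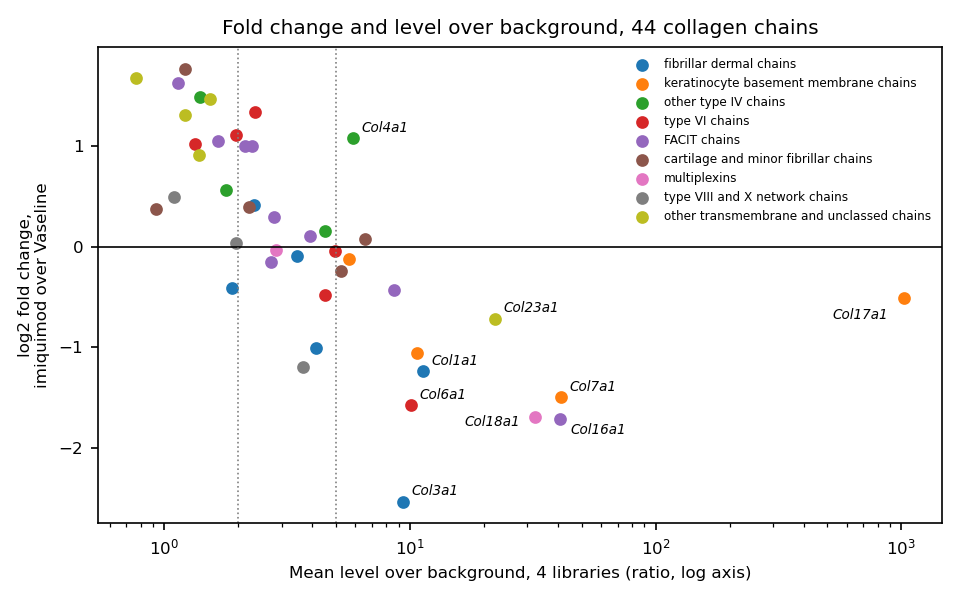
Log2 fold change (TMM factors) against the mean level over background in the 4 libraries (ratio, log axis) for the 44 collagen chains, with dotted lines at 2 and 5 times background. Of the 15 chains left of the first line 14 are above 0, and of the 14 right of the second 12 are below 0, with Col4a1 at 1.08 the highest there. The x axis leans on Vaseline 2 and is not independent of the y axis, and a fit to the right-hand genes alone gave 7 chains above and 7 below 0; with library totals the points shift upward and some signs change.

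Genes that modify, fold, export and cross-link collagen were counted as the rest of the pathway. Of 29 such genes (prolyl and lysyl hydroxylases, chaperones, propeptide proteinases and lysyl oxidases among them), 0 passed the edgeR test in either direction, and 1 lower and 0 higher had an unadjusted p under 0.05. Their median log2 fold change was -0.20, with 11 positive and 18 negative, and imiquimod lay below without overlap in 10 and above in 5, where all genes tested gave 20.9% and 30.5%; 17 of the 29 are at 5 times background or more, where 50.3% of all genes lay below. P4hb, the protein disulfide isomerase subunit of prolyl 4-hydroxylase, measured 348 and 694 CPM with Vaseline and 271 and 136 CPM with imiquimod. Mia3, which loads procollagen into export carriers, measured 160 and 210 CPM with Vaseline and 121 and 61.1 CPM with imiquimod. Ppib, a prolyl isomerase that acts on procollagen, measured 99.3 and 201 CPM with Vaseline and 86.6 and 34.0 CPM with imiquimod. All 3 were lower in both imiquimod libraries, with log2 fold changes of -1.36, -1.03 and -1.32 and edgeR quasi-likelihood adjusted p of 0.461, 0.478 and 0.388; these genes serve secreted proteins in most cells and are not limited to collagen producers. The 6 pericyte and smooth muscle markers and the 5 Schwann cell markers also had 0 members past the test, with median log2 fold changes of 0.59 and 0.18.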

How the data were processed

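RNA from isolated ear Langerhans cells was measured in 2 Vaseline and 2 imiquimod libraries prepared, per the labels' protocols, using a stranded pico-input total RNA kit (SMARTer). The deposited values are raw counts per gene made by the authors with Trimmomatic, HISAT2, SAMtools and StringTie on GRCm38, per the submitters' processing notes; versions, strand setting and treatment of multi-mapped reads are not given in the sources used here. Genes whose exons overlap others may therefore share counts. Groups were taken from the sample titles.

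Counts were tested with edgeR 4.0.16 in R 4.3.3 (TMM factors, filterByExpr with minimum count 10 and total 15, quasi-likelihood fit in its newer form, two-sided, Benjamini-Hochberg over 39439 genes, threshold 0.05); 16048 genes were filtered out. SE was derived as the log2 fold change divided by the root of the F statistic. Exonic lengths are unions of GENCODE vM21 exons, which matched 55227 of 55487 genes. The background ratio of a chain is the mean of 4 libraries and leans on Vaseline 2, whose background was lowest. The fit was tested on simulated data. Alternatives were RLE factors, library totals, DESeq2 1.42.0, other filters, the older quasi-likelihood form, replicate blocks and leaving out each library. Python 3.11.15, numpy 2.4.6, pandas 2.3.3, matplotlib 3.10.9 and bedtools 2.31.1 were used.

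The chains, the 9 classes and the 9 other lists (89 genes) were chosen with earlier results of these data known. Named genes were all fibrillar dermal and keratinocyte basement membrane chains, in each other class the chains past the threshold or else the 2 with the highest level per exonic kilobase, and in each list the 3 highest; other chains, and Dcn, Pdgfra, Cd207 and Snorc, were named after their values were seen. Libraries of a group were not copies of the same counts: chi-square per degree of freedom was 85.8 for Vaseline and 80.0 for imiquimod. These values cannot tell separate mice from technical replicates, since the latter can also differ by more than counting error.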

Additional observations from a re-analysis of the deposited data

How the results depend on the processing

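The Col3a1 call was kept with DESeq2 (which also called Col16a1, 2 lower chains), with a stricter filter and without Vaseline 1. It was lost, leaving 0 lower chains, with RLE factors, library totals, no filter, both fits to genes above background and the older quasi-likelihood form. The call was also lost without Vaseline 2, imiquimod 1 or imiquimod 2. The Col3a1 fold change stayed negative in every setting, from -3.53 to -0.53 when a library was left out. Higher chains were 0 in most settings; 1 was called by DESeq2 above background (Col4a1) and 1 without Vaseline 1 (Col28a1), where edgeR called 7.17% of all genes higher (range 0 to 1). DESeq2 gave no adjusted p for 24 of the 44 chains.

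With the replicate number as a block, edgeR gave Col3a1 -2.44 with an adjusted p of 0.705, so 0 chains were lower, and over all genes 1 was higher and 0 lower; with the numbers crossed there were 0 and 0, and 0 lower chains. The deviations of same-numbered libraries from their group means gave a correlation of -0.33, a single value since with 2 libraries a group the second deviation mirrors the first. Such libraries are only taken to share a number.

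Over all genes, 25 higher and 54 lower became 17 and 14 with RLE factors, 8 and 5 with library totals, 9 and 695 with DESeq2, 27 and 124 with the stricter filter, 3 and 5 with the older form, and 97 and 156 with DESeq2 above background. EdgeR gave 0 and 0 with no filter (3185 and 1996 at an unadjusted p under 0.05) and above background (798 and 698). Without 1 library the counts ran from 8 to 2959 higher and from 0 to 317 lower, the highest of both without Vaseline 1. The fibrillar to basement membrane difference was -0.48 with 5 marker chains, -0.03 per exonic kilobase and 0.31 as mean log2 levels with a pseudocount of 0.5 CPM, all within its spread, and ran from -1.63 to 1.51 without 1 library. After background subtraction it had no value, since imiquimod 1 held fewer fibrillar counts than its background.

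Of 24 named chains, 11 kept their sign in all settings. The log2 fold changes that turned sign were these. With library totals, Col1a2 0.0996, Col5a1 0.94, Col5a2 0.55, Col4a6 0.48, Col17a1 0.068, Col6a3 0.96, Col12a1 0.32, Col11a2 0.70, Col15a1 0.91, Col23a1 0.075, Krt15 0.27, Notch3 0.18, Pmp22 0.51 and Chad 0.57. In edgeR above background, Col4a6 0.47, Col17a1 0.051, Col12a1 0.28, Col11a2 0.61, Col23a1 0.036, Krt15 0.27, Notch3 0.14, Pmp22 0.49 and Chad 0.47. In DESeq2 above background, Col4a6 0.44, Col17a1 0.017, Col12a1 0.25, Col11a2 0.58, Col23a1 0.0041, Krt15 0.23, Notch3 0.11, Pmp22 0.46 and Chad 0.43. With DESeq2, Col4a2 -0.22, Col27a1 -0.23, Col8a2 -0.32 and Sox10 -0.17. With RLE factors, Col4a2 -0.13, Col27a1 -0.19, Col8a2 -0.21 and Sox10 -0.024. With the stricter filter, Col5a1 0.13, Col4a6 0.026, Col6a3 0.18, Col15a1 0.17 and Pmp22 0.018. With no filter, Col27a1 -0.0092 and Col8a2 -0.043. With the older form, Col8a2 -0.024. With the crossed block, Col8a2 -0.071. Leaving out 1 library turned the sign of these genes, over ranges of -1.04 to 0.32 for Col5a1, -0.93 to 0.10 for Col5a2, -1.63 to 0.66 for Col4a6, -1.98 to 0.19 for Col17a1, -0.64 to 0.53 for Col4a2, -0.70 to 0.30 for Col6a3, -0.32 to 0.30 for Col27a1, -0.88 to 0.0797 for Col11a2, -0.64 to 0.26 for Col15a1, -0.58 to 0.30 for Col8a2, -4.94 to 0.83 for Krt15, -2.38 to 0.013 for Dst, -2.20 to 0.053 for Itga6, -0.047 to 0.52 for Pecam1, -1.66 to 0.62 for Pmp22, -0.99 to 0.79 for Sox10, -1.03 to 0.091 for Chad. The cause of these changes was not tested.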
